A study of Caenorhabditis elegans with 8 samples.

Results

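The proteasome subunit genes of *C. elegans* were taken as all genes whose name starts with *pas-*, *pbs-*, *rpn-* or *rpt-* in the WBcel235 annotation, which gave 33 of the 46453 gene names in the files. Of these, 14 encode the core particle (7 *pas* genes for the alpha subunits and 7 *pbs* genes for the beta subunits) and 19 encode the regulatory particle (6 *rpt* ATPases and 4 other subunits of its base, and 9 subunits of its lid). Membership rests on gene names. The levels were compared in mRNA-seq libraries from whole L4 hermaphrodites of *mut-16(pk710)* mutants (strain NL1810) and of wild-type (N2) animals. The 4 groups were *mut-16* at 25ºC, *mut-16* at 20ºC, wild-type at 25ºC and wild-type at 20ºC, with 2 biological replicates each. Synchronized L1 larvae were grown on plates to the L4 stage, which took about 39 h at 25ºC and about 56 h at 20ºC, so temperature and time on plates change together and cannot be told apart. MUT-16 is needed for those secondary small interfering RNAs in the germline that depend on the *mutator* complex, while others are made without that complex. *pk710* is the single allele studied, without a rescued strain. Because RNA came from whole animals, fewer cells of a type and less RNA per cell cannot be told apart.

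The proteasome degrades proteins that carry ubiquitin chains. Its core particle is a barrel of outer rings of alpha subunits and inner rings of beta subunits, and 3 of the beta subunits hold the proteolytic sites. The regulatory particle caps the barrel: ATPases of its base unfold the substrate, other base subunits bind ubiquitin, and its lid removes the ubiquitin chain. All eukaryotic cells need proteasomes, and the subunits assemble in fixed ratios. In *C. elegans*, the transcription factor SKN-1 raises the transcription of subunit genes when proteasome function is impaired, and extra RPN-6.1 is known to increase proteasome activity and tolerance of heat.

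Libraries held between 9914054 and 13227929 expected counts, an estimate of reads per gene that is not scaled for depth or length. Counts were scaled with the TMM method to CPM, which are counts relative to library size, and each gene was tested with edgeR's quasi-likelihood test over 13972 genes. A gene was called where its p-value, adjusted by Benjamini-Hochberg over all genes tested, was at most 0.05. The *mut-16* gene had between 55 and 105 counts in *mut-16* libraries and between 229 and 340 counts in wild-type libraries. Among small heat shock genes, *hsp-16.2* was higher at 25ºC by 1.69 on the log2 scale in *mut-16* (adjusted p = 5.1e-05, edgeR) and by 2.17 in wild-type (adjusted p = 9.9e-06, edgeR). Among the 8 heat shock entries tested, the name *hsp-16.1* stands more than once. Its entries were at 0.60 and 1.40 in *mut-16* (adjusted p = 0.024 and 0.17, edgeR). In wild-type the same entries were at 1.33 and 0.28 (adjusted p = 7.7e-05 and 0.81, edgeR). Of the 8 entries, 4 were called higher and 2 lower at 25ºC in *mut-16*, and 5 higher and 0 lower in wild-type. The 2 lower were *F44E5.4* and *F44E5.5*, members of the HSP70 family, at −1.54 and −1.15 on the log2 scale in *mut-16* (adjusted p = 0.00017 and 0.011, edgeR), against 0.91 and 0.64 in wild-type, of which the second did not pass. Markers of sperm, oocytes, the germline, muscle, neurons, intestine and hypodermis all had counts in these libraries of whole animals. Replicates differed more at 20ºC than at 25ºC: a chi-square of their counts per degree of freedom was 3.54 in *mut-16* at 25ºC, 17.6 in *mut-16* at 20ºC, 9.84 in wild-type at 25ºC and 18.0 in wild-type at 20ºC.

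All 33 subunit genes passed the filter on low counts in every comparison. Apart from *rpn-6.2*, their counts lay between 776 and 3228 per library, so counting noise was small. The estimates were whole numbers (within 0.001) in all 8 libraries for 32 subunit genes, and only *rpn-13*, a ubiquitin receptor of the base, had fractional counts. All are protein-coding genes, 10 of them on chromosome I, and 11 have an exon that overlaps another annotated gene. Whether the counting used the strand is not stated.

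Core particle mRNAs were more abundant per length than regulatory particle mRNAs. Scaled by the length of a gene's exons, the mean over the 8 libraries ranged from 114 CPM per kb for *pbs-2*, which has the trypsin-like site, to 239 CPM per kb for *pas-3*, an alpha subunit, with a median of 166 CPM per kb over the 14 core genes. Leaving out *rpn-6.2*, the regulatory particle genes ranged from 55.3 CPM per kb for *rpn-2*, a large scaffold of the base, to 116 CPM per kb for the ATPase gene *rpt-2*, with a median of 92.7. The core and regulatory ranges thus met only at their edges, with *pbs-2* below *rpt-2* and *rpn-12*, which had 115 CPM per kb. Within the regulatory particle, the 6 ATPases had a median of 103 CPM per kb, the 4 other base subunits one of 59.0, and the 9 lid subunits one of 91.3. The union of exons was 801 to 1059 bases in core genes and 855 to 3171 bases in regulatory genes, of which only *rpn-12* lay within the core range, so particle and gene length go together.

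The highest and the lowest subunit stood far apart. *pas-3* had 237 and 217 CPM per kb in *mut-16* at 25ºC, 246 and 200 in *mut-16* at 20ºC, 247 and 257 in wild-type at 25ºC, and 246 and 259 in wild-type at 20ºC. *rpn-6.2*, a paralog of the lid subunit gene *rpn-6.1*, had 4.73 and 4.78 CPM per kb in *mut-16* at 25ºC, 6.64 and 7.85 in *mut-16* at 20ºC, 7.43 and 11.2 in wild-type at 25ºC, and 9.68 and 9.24 in wild-type at 20ºC. *rpn-6.2* was the lowest of the 33 genes in each of the 8 libraries, while *pas-3* was the highest in 4 of 8 and ranked next to the highest in the others. The mean of *rpn-6.2* over the 8 libraries, 7.69 ± 2.30 CPM per kb (SD), was the lowest.

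**Figure D1:**
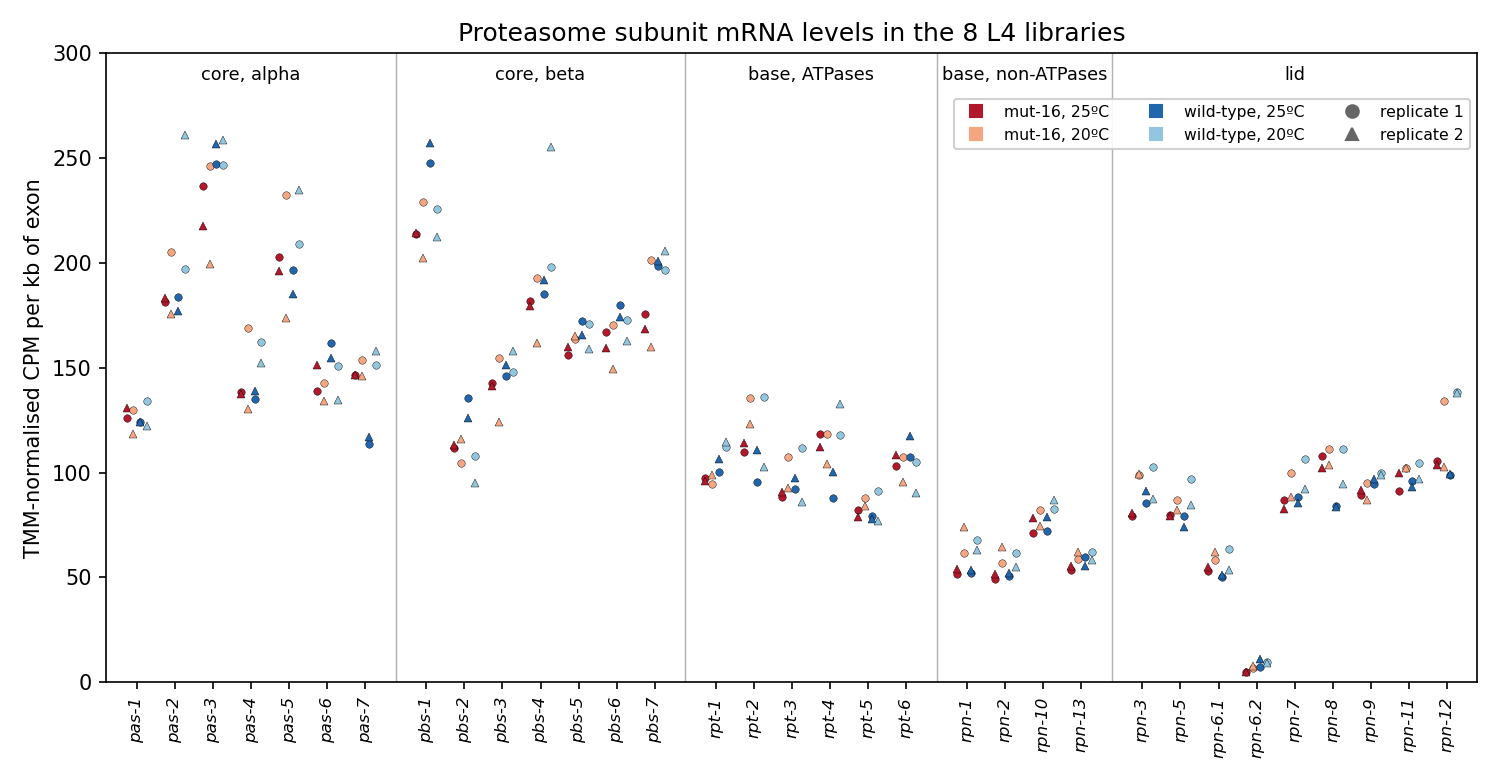
Levels of the 33 proteasome subunit genes in TMM-normalised CPM per kb of exon, 1 point per library, with groups by colour (from left to right within a gene *mut-16* at 25ºC, *mut-16* at 20ºC, wild-type at 25ºC, wild-type at 20ºC) and replicates by shape. Mean levels of core genes ran from 114 to 239 and those of regulatory genes from 55.3 to 116, apart from *rpn-6.2* at 7.69.

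Subunit mRNAs varied little over the 8 libraries. The coefficient of variation had a median of 8.89% over the family, against 15.1% over the 851 tested genes whose mean CPM lay in the same range and 21.98% over all tested genes. It was lowest for *pbs-5* at 3.45%, and highest for *rpn-6.2* at 29.9%. *pbs-5*, which has the chymotrypsin-like site of the core, had 165 and 169 CPM in *mut-16* at 25ºC, 173 and 175 CPM in *mut-16* at 20ºC, 183 and 175 CPM in wild-type at 25ºC, and 181 and 168 CPM in wild-type at 20ºC. Its largest log2 difference between groups was −0.10 (*mut-16* against wild-type at 25ºC, 95% interval −0.35 to 0.16).

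Summed over the family, the subunits had 4448 ± 10.03 CPM in *mut-16* at 25ºC, 4691 ± 266 CPM in *mut-16* at 20ºC, 4528 ± 52.9 CPM in wild-type at 25ºC and 4905 ± 134 CPM in wild-type at 20ºC (SD, n = 2 each). As shares of all counts in a library, unscaled, the means were 0.447% in *mut-16* at 25ºC, 0.494% in *mut-16* at 20ºC, 0.403% in wild-type at 25ºC and 0.519% in wild-type at 20ºC. The sums at 25ºC were thus below those at 20ºC in both genotypes, by less in *mut-16* than the difference of its 2 libraries at 20ºC, which had 4879 and 4502 CPM.

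Whether heat stress changed subunit mRNAs in *mut-16* mutants was asked first. No subunit gene was called in either direction at 25ºC against 20ºC in *mut-16* (0 of 33), while 7.71% of all genes tested were called higher and 4.47% lower with edgeR's quasi-likelihood test. At an unadjusted p below 0.05, which 25.8% of all genes tested reached, 3 subunit genes were lower, *rpn-6.2*, *rpn-1* and *rpn-3*, and DESeq2 called 1 gene, *rpn-1*, lower (4.47% of all genes it tested). Log2 fold changes lay between −0.61 for *rpn-6.2* and 0.07 for the alpha subunit gene *pas-6*. The 95% interval stayed within a 1.5-fold change in either direction for 31 of the 33 genes. *rpn-1*, the largest scaffold of the base and a docking site for ubiquitin-like proteins, had 163 and 172 CPM in *mut-16* at 25ºC, against 196 and 234.8 CPM in *mut-16* at 20ºC. Both libraries at 25ºC were below both at 20ºC, with a log2 fold change of −0.37 ± 0.13 (SE) that did not pass (adjusted p = 0.085, edgeR).

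In wild-type, 3 subunit genes fell at 25ºC against 20ºC and 0 of 33 rose, where 9.62% of all genes tested fell and 11.1% rose. The share of the family that fell, 3 of 33, was close to that background. The 3 genes belong to different parts of the complex and all changed by less than 1.5-fold, so none passed a stricter rule that also requires a log2 fold change beyond 1. For 27 of the 33 genes the 95% interval lay within a 1.5-fold change. DESeq2 also called 0 higher and 3 lower, where 9.71% of all genes it tested were higher and 8.55% lower. At an unadjusted p below 0.05 there were 7 subunit genes, where 32.5% of all genes tested were. Scaling by total counts in place of TMM moved the median of all genes tested by −0.25, and 15 subunit genes were then called lower (19.9% of all genes tested) and 0 higher (6.36%).

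*pas-7* (chromosome II, 10098782 to 10099854, minus strand), an alpha subunit gene of the core, had 111 and 114 CPM in wild-type at 25ºC, against 148 and 155 CPM in wild-type at 20ºC. Both libraries at 25ºC were below both at 20ºC. It fell by 0.43 on the log2 scale (SE 0.12, adjusted p = 0.022, edgeR's quasi-likelihood test). In *mut-16* it had 143 and 143 CPM at 25ºC, against 150 and 143 CPM at 20ºC, a log2 fold change of −0.03 ± 0.12 with overlapping libraries. The 2 wild-type libraries at 25ºC were thus the lowest of the 8. Its exons overlap those of *lact-2* on the opposite strand by 4 bases.

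*rpn-12* (chromosome II, 11653124 to 11654192, plus strand), a small subunit of the lid, had 84.4 and 84.9 CPM in wild-type at 25ºC, against 118 and 118 CPM in wild-type at 20ºC. Replicates lay close together and the groups did not overlap. It fell by 0.48 on the log2 scale (SE 0.14, adjusted p = 0.027, edgeR's quasi-likelihood test). In *mut-16* it had 90.4 and 88.7 CPM at 25ºC, against 115 and 87.7 CPM at 20ºC. There the libraries overlapped, since replicate 2 at 20ºC lay below both at 25ºC, and the fold change of −0.17 ± 0.14 did not pass.

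*rpt-4* (chromosome II, 42207 to 46216, minus strand), 1 of the 6 ATPases that thread substrates into the core, had 128 and 146 CPM in wild-type at 25ºC, against 173 and 194 CPM in wild-type at 20ºC. The groups did not overlap, and *rpt-4* fell by 0.41 on the log2 scale (SE 0.13, adjusted p = 0.040, edgeR's quasi-likelihood test). In *mut-16* it had 173 and 164 CPM at 25ºC, against 173 and 152 CPM at 20ºC, with a log2 fold change of 0.05 ± 0.13. Its exons overlap those of *rpoa-49*, on the opposite strand, by 103 bases, and *rpoa-49* had at most 291 counts in a library. The part of these reads in the value of *rpt-4* was not tested.

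These 3 calls rest on few libraries. When each of the 8 libraries was left out in turn, *pas-7* was called in 3 of 8 fits (log2 fold change −0.45 to −0.40), *rpn-12* in 2 of 8 (−0.49 to −0.45) and *rpt-4* in 3 of 8 (−0.51 to −0.33). Leaving out wild-type at 20ºC replicate 2, either wild-type library at 25ºC or either *mut-16* library at 25ºC left 0 of the 3 called, and leaving out wild-type at 20ºC replicate 1 lost *rpn-12* alone.

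The highest log2 fold change at 25ºC in wild-type was that of *pbs-2*, which has the trypsin-like site of the core. It had 137 and 127 CPM in wild-type at 25ºC, against 109 and 95.6 CPM in wild-type at 20ºC. All libraries at 25ºC were above those at 20ºC, but the log2 fold change of 0.37 ± 0.13 did not pass (adjusted p = 0.060, edgeR). The caspase-like subunit gene *pbs-1* and the chymotrypsin-like *pbs-5* did not pass either, at 0.20 and 0.04. The 7 beta subunit genes had a median of 0.04, against −0.20 for the 7 alpha subunit genes, with 0 and 1 called, in wild-type.

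**Figure D2:**
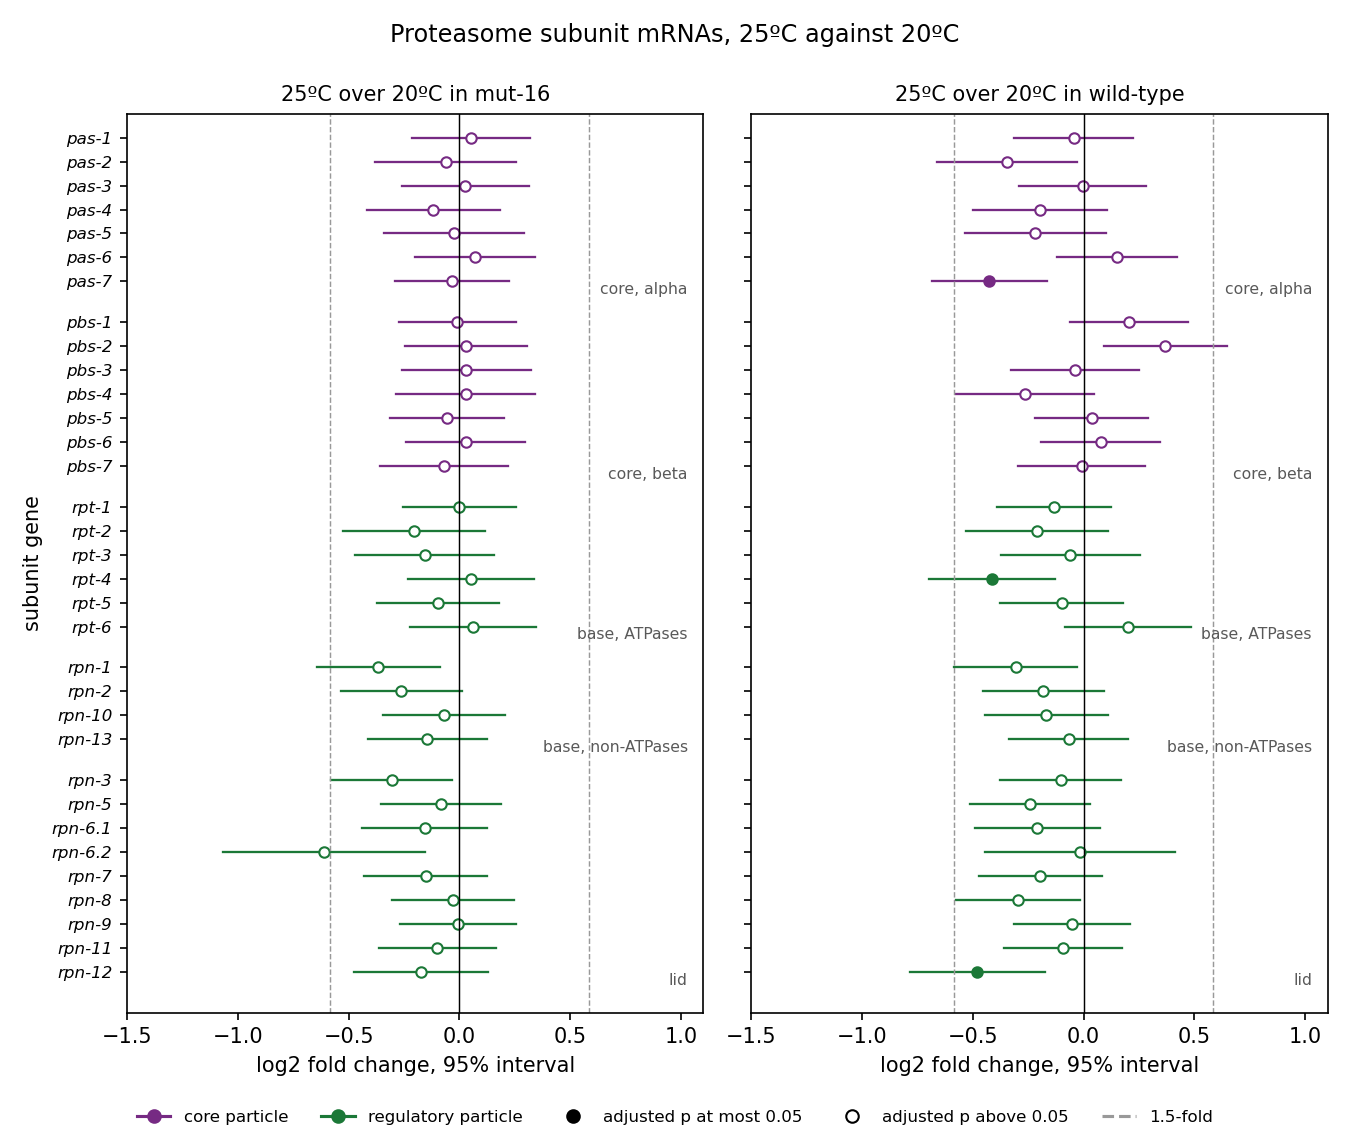
Log2 fold changes at 25ºC over 20ºC of each subunit gene in *mut-16* and in wild-type, with 95% intervals, core genes in purple and regulatory genes in green. Filled points mark an adjusted p of at most 0.05, dashed lines a 1.5-fold change; *pas-7*, *rpt-4* and *rpn-12* are filled in wild-type and 0 genes in *mut-16*.

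The median change at 25ºC was lower for regulatory particle genes than for core genes in both genotypes, by an amount that changed with the library left out. In *mut-16* the median log2 fold change was −0.15 over the 19 regulatory genes and 0.01 over the 14 core genes. Over all genes tested it was 0.00. With RLE scaling the regulatory, core and all-gene medians in *mut-16* were −0.19, −0.04 and −0.04. With total count scaling they were −0.22, −0.06 and −0.07, so the medians moved together. In wild-type the median log2 fold change was −0.17 over regulatory genes and −0.02 over core genes, beside −0.00 over all genes tested. Below zero in *mut-16* were 16 of 19 regulatory and 7 of 14 core genes, where 49.7% of all genes tested were. In wild-type they were 18 of 19 regulatory and 9 of 14 core genes, where 50.1% of all genes tested were. The subunit genes share libraries and are not replicates. The 2 genotypes use different libraries. Without *mut-16* at 20ºC replicate 2, the medians in *mut-16* were −0.14 for regulatory and −0.10 for core genes. Without replicate 1 of that group they were −0.060 and 0.11. In wild-type the regulatory and core medians were −0.057 and −0.016 without wild-type at 20ºC replicate 1. Without replicate 2 of that group they were −0.24 and −0.0086. By subgroup in *mut-16*, medians were −0.20 for the base subunits that are not ATPases, −0.15 for the lid, −0.05 for the ATPases, −0.02 for alpha and 0.03 for beta subunits, and in wild-type they were −0.18, −0.19, −0.12, −0.20 and 0.04 in the same order.

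The libraries at 25ºC were all below those at 20ºC for 13 subunit genes in *mut-16*, 12 of them regulatory, where 28% of all genes tested were so, and were all above for 0, where 30.2% of all genes tested were so. In wild-type they were all below for 17 subunit genes, 12 of them regulatory (28.2% of all genes tested), and all above for 5 (29.2%). The ratio of summed core CPM to summed regulatory CPM was 0.882 and 0.864 in *mut-16* at 25ºC, against 0.844 and 0.758 in *mut-16* at 20ºC. In wild-type the ratio was 0.942 and 0.905 at 25ºC, against 0.795 and 0.908 at 20ºC. The ratio was thus higher in both libraries at 25ºC than in both at 20ºC in *mut-16*, while in wild-type the groups overlapped. No test was run on this ratio, since with 2 libraries against 2 an exact two-sided permutation test cannot go below p = 0.33.

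Oocyte and sperm markers changed with temperature in the same libraries. In *mut-16*, 14 of 15 oocyte and eggshell genes were called higher at 25ºC (median log2 fold change 1.09) and 20 of 30 major sperm protein genes lower (median −0.93), with edgeR. In wild-type, 1 of 15 oocyte and eggshell genes was called higher and 0 lower (median −0.09), while 11 of 30 major sperm protein genes were higher and 3 lower (median 0.51). Of 11 germline markers, 0 were called in *mut-16* (median 0.18). In wild-type 0 of these 11 were called higher and 1 lower (median −0.39). Oocyte and eggshell genes together had 392 and 429 CPM in *mut-16* at 25ºC, against 226 and 203 CPM in *mut-16* at 20ºC, and 313 and 343 CPM in wild-type at 25ºC, against 428 and 269 CPM in wild-type at 20ºC. None was at 0 in all libraries. Their part in the subunit values was not tested.

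Replicates of the same group also differed between the particles, along gene length. In *mut-16* at 20ºC, replicate 2 was below replicate 1 for 12 of 14 core genes (median difference −0.21 on the log2 CPM scale) and for 11 of 19 regulatory genes (median −0.07). In wild-type at 20ºC it was below for 7 of 14 core genes (median −0.01) and for 16 of 19 regulatory genes (median −0.16). At 25ºC replicates lay closer, with medians between −0.01 and 0.04 for both particles in both genotypes. Across the 33 genes, which share libraries and are not replicates, the Pearson correlation of this difference with log2 exon length was 0.28 in *mut-16* at 25ºC, 0.70 in *mut-16* at 20ºC, 0.21 in wild-type at 25ºC and −0.47 in wild-type at 20ºC. Over all genes whose log2 CPM averaged 4 or more, the difference in *mut-16* at 20ºC likewise had a median of −0.38 in the 512 genes of up to 600 bases and of 0.32 in the 947 genes of over 3200 bases. Since regulatory genes are longer, particle and gene length go together in these values. A length trend was therefore removed from each library, a step chosen after seeing the data. In *mut-16* the medians at 25ºC against 20ºC were then −0.21 for regulatory and −0.10 for core genes, closer to each other than before, and in wild-type they were −0.16 and −0.01, as far apart as before. With this step *rpn-1*, *rpn-3* and *rpn-6.2* were called lower at 25ºC in *mut-16*, where 7.26% of all genes tested were.

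**Figure D3:**
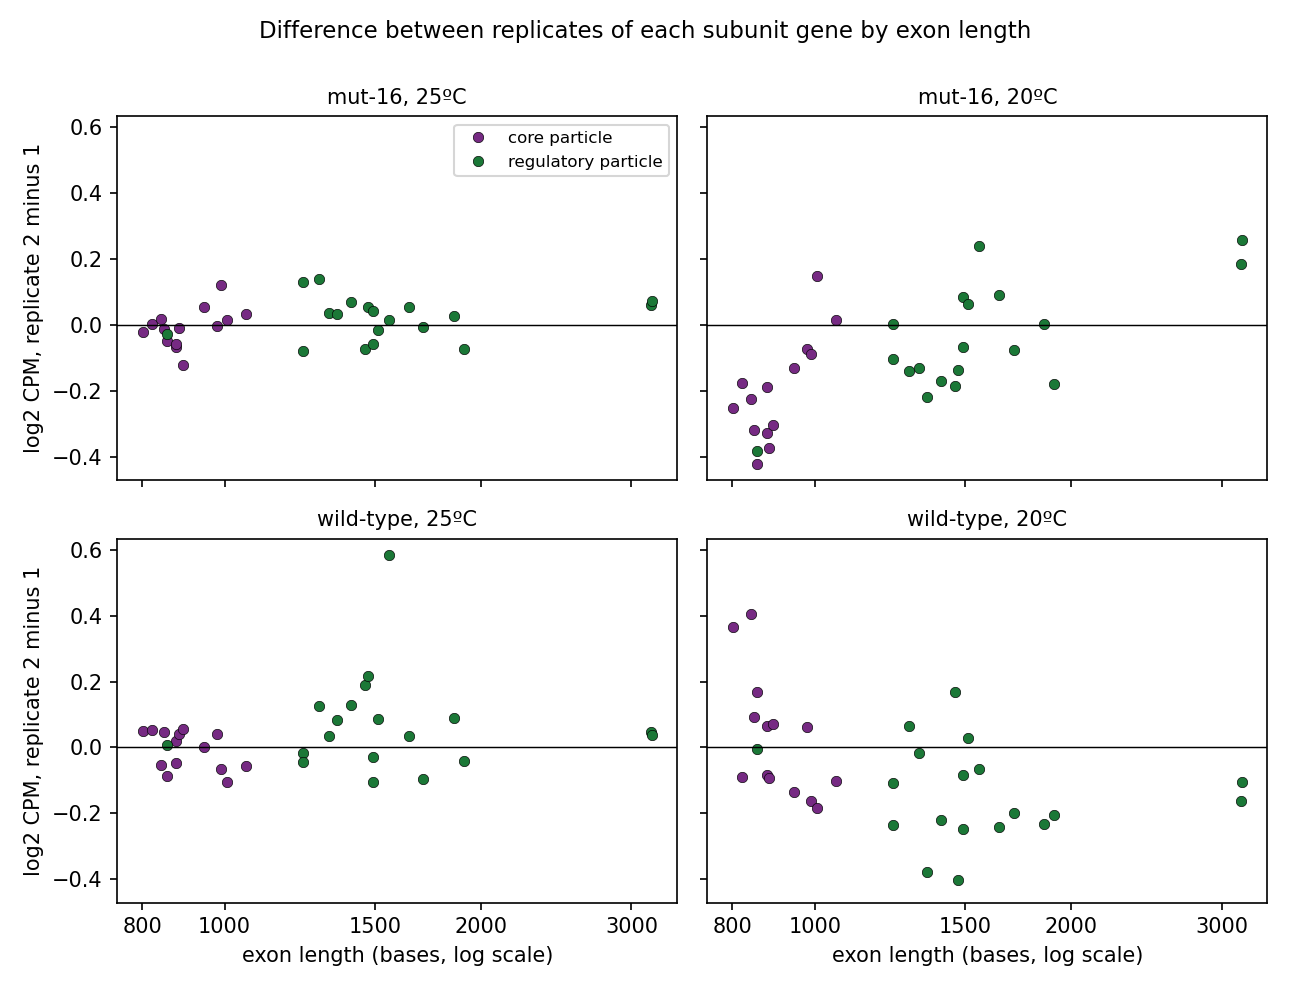
Difference in log2 CPM between replicates 2 and 1 of each group against exon length on a log scale, 1 point per subunit gene, core in purple and regulatory in green. The points climb with length in *mut-16* at 20ºC (r = 0.70) and descend in wild-type at 20ºC (r = −0.47), and lie near 0 for most genes at 25ºC.

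At 25ºC 1 subunit gene, *rpn-6.2*, was lower in *mut-16* than in wild-type and 0 of 33 were higher, where 12.5% of all genes tested were lower and 7.68% higher in *mut-16* with edgeR's quasi-likelihood test. DESeq2 gave the same numbers, 1 lower and 0 higher, where 9.88% of all genes it tested were lower and 5.87% higher. At an unadjusted p below 0.05, which 32.4% of all genes tested reached, 3 subunit genes were higher and 1 lower. For 30 of 33 genes the 95% interval lay within a 1.5-fold change. The median log2 fold change was −0.08 over core genes and −0.02 over regulatory genes, beside 0.00 over all genes tested. With total count scaling, which moved the median of all genes by 0.17, the core and regulatory medians were 0.09 and 0.16, and 3 subunit genes were called higher (13.7% of all genes tested) and 1 lower (9.24%). Both *mut-16* libraries were below both wild-type libraries for 15 subunit genes (33.9% of all genes tested) and above for 7 (33.4%). The 15 genes included all 7 beta subunit genes, whose log2 fold changes lay between −0.24 and −0.06 with 0 called. This subgroup was picked after its values were seen. At 20ºC both *mut-16* libraries were below both wild-type libraries for 2 core genes, the beta subunit gene *pbs-4* and the alpha subunit gene *pas-3*.

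*rpn-6.2* (chromosome III, 8999817 to 9001999, minus strand) had 7.36 and 7.45 CPM in *mut-16* at 25ºC, from 90 and 100 counts, against 11.6 and 17.4 CPM in wild-type at 25ºC, from 109 and 197 counts. Both *mut-16* libraries were below both wild-type libraries, and the wild-type replicates differed from each other more than the *mut-16* replicates did. It fell in *mut-16* by 0.97 on the log2 scale (SE 0.21, adjusted p = 0.0051, edgeR's quasi-likelihood test). Leaving out each library in turn gave −1.24 to −0.64, called in 5 of 8 fits. Without wild-type at 25ºC replicate 2, the higher of its group, the log2 fold change was −0.64 with an adjusted p of 0.096, and without either *mut-16* library at 25ºC the adjusted p was 0.050 or 0.052, just above the threshold (edgeR). At 20ºC *rpn-6.2* had 10.3 and 12.2 CPM in *mut-16*, against 15.1 and 14.4 CPM in wild-type, also without overlap, and the log2 fold change of −0.38 ± 0.20 did not pass (adjusted p = 0.29, edgeR).

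*rpn-6.1* (chromosome III, 6959110 to 6962001, minus strand), the lid subunit that braces the lid against the core, did not follow its paralog. It had 87.5 and 90.9 CPM in *mut-16* at 25ºC, against 82.3 and 84.4 CPM in wild-type at 25ºC. At 20ºC it had 96.4 and 103 CPM in *mut-16*, against 104 and 88.3 CPM in wild-type. Log2 fold changes of *mut-16* over wild-type were 0.10 ± 0.13 at 25ºC and 0.05 ± 0.13 at 20ºC, and neither passed.

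*rpn-6.2* accordingly made up less of the counts of both paralogs in *mut-16*. Its share was 7.76% (95% Wilson interval 6.35 to 9.44) and 7.58% (6.27 to 9.13) in *mut-16* at 25ºC, against 12.3% (10.3 to 14.6) and 17.1% (15.04 to 19.4) in wild-type at 25ºC. At 20ºC it was 9.68% (8.06 to 11.6) and 10.6% (9.22 to 12.3) in *mut-16*, against 12.6% (11.1 to 14.4) and 14.01% (12.1 to 16.13) in wild-type. These intervals cover counting error only. All 4 *mut-16* libraries were below all 4 wild-type libraries, although some intervals overlap. Counts of both paralogs were whole numbers in all libraries.

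Sperm transcripts moved in the same direction between the genotypes. The 30 tested major sperm protein genes, which encode the cytoskeletal protein of nematode sperm, were all called lower in *mut-16* at 25ºC, with log2 fold changes between −4.36 and −1.47 and a median of −2.50 (edgeR). Their summed level, over 31 genes, was 443 and 460 CPM in *mut-16* at 25ºC and 958 and 705 CPM in *mut-16* at 20ºC, against 2203 and 2581 CPM in wild-type at 25ºC and 1954 and 1317 CPM in wild-type at 20ºC. None of them was at 0 in all libraries. At 25ºC against 20ºC the major sperm protein genes had medians of −0.93 in *mut-16* and 0.51 in wild-type. *rpn-6.2* was at −0.61 and −0.02 there, and was not called in either. The part of sperm transcripts in the value of *rpn-6.2* was not tested.

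**Figure D4:**
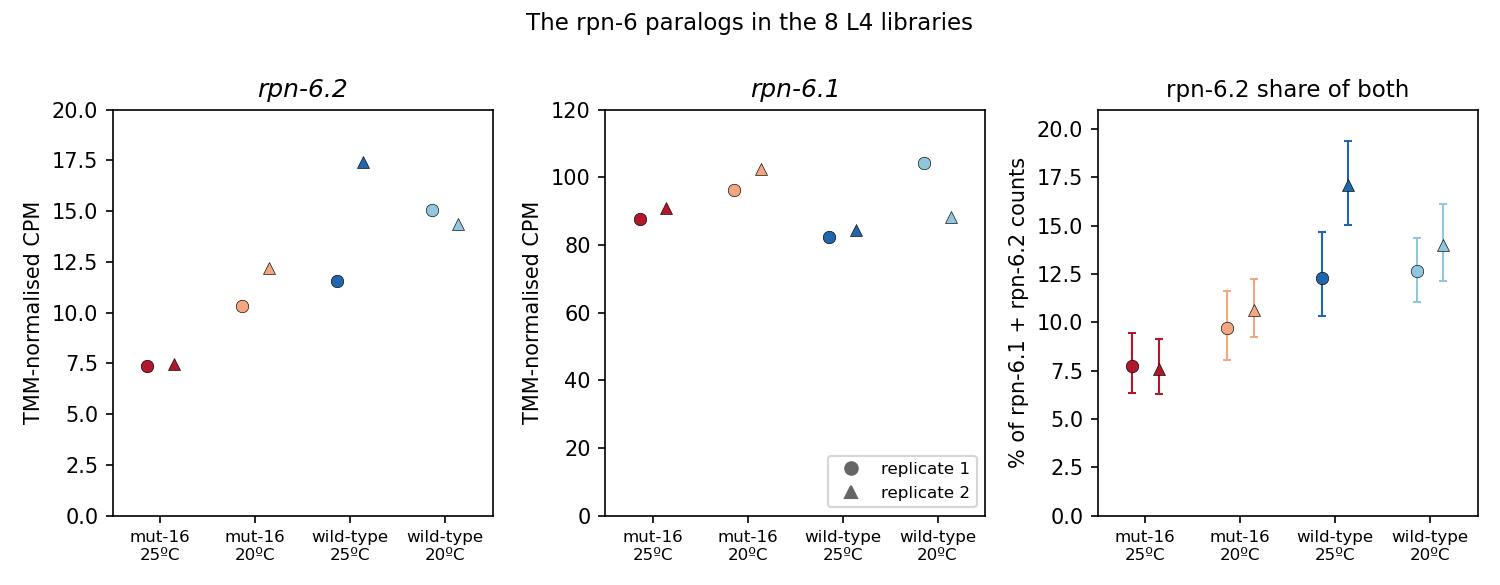
*rpn-6.2* and *rpn-6.1* in TMM-normalised CPM, and *rpn-6.2* as a percentage of the counts of both with 95% Wilson intervals, 1 point per library, groups along the axis and replicates by shape. *rpn-6.2* was lowest in *mut-16* at 25ºC (7.36 and 7.45 CPM), while *rpn-6.1* lay between 82.3 and 104 CPM in all libraries.

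The 3 subunits with an unadjusted p below 0.05 in the higher direction at 25ºC were *pas-7*, *rpn-8* and *rpt-4*. This comparison shares the wild-type libraries at 25ºC with that of the temperatures in wild-type. *pas-7* came closest to the threshold, with 143 and 143 CPM in *mut-16* at 25ºC, against 111 and 114 CPM in wild-type at 25ºC. The log2 fold change was 0.35 ± 0.12 (adjusted p = 0.058, edgeR). *rpn-8*, the inactive partner of the deubiquitinase of the lid, had 133 and 126 CPM in *mut-16* at 25ºC, against 104 and 103 CPM in wild-type at 25ºC. Both genes were thus lowest in the wild-type libraries at 25ºC, without overlap, and neither passed.

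At 20ºC, 0 of 33 subunit genes were called in *mut-16* against wild-type, where 2.68% of all genes tested were higher and 5.75% lower with edgeR's quasi-likelihood test. DESeq2 also called 0, where 2.8% of all genes it tested were higher and 4.37% lower. Only 1 gene, the beta subunit gene *pbs-4*, had an unadjusted p below 0.05 with either tool, where 22.7% of all genes tested did with edgeR. Its log2 fold change was −0.35 (edgeR). Log2 fold changes lay between −0.38 for *rpn-6.2* and 0.12 for *pbs-2*, with a median of −0.07 over core genes and 0.02 over regulatory genes, beside −0.05 over all genes tested. Core genes were lower in 13 of 14 cases and regulatory genes in 8 of 19, where 55.4% of all genes tested were lower. Both *mut-16* libraries were below both wild-type libraries for 7 subunit genes (27.4% of all genes tested) and above for 0 (19.2%). The core median ran from −0.22 to 0.06 when single libraries were left out, so its sign rests on the replicates at 20ºC described above. Intervals lay within 1.5-fold for 31 of 33 genes.

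**Figure D5:**
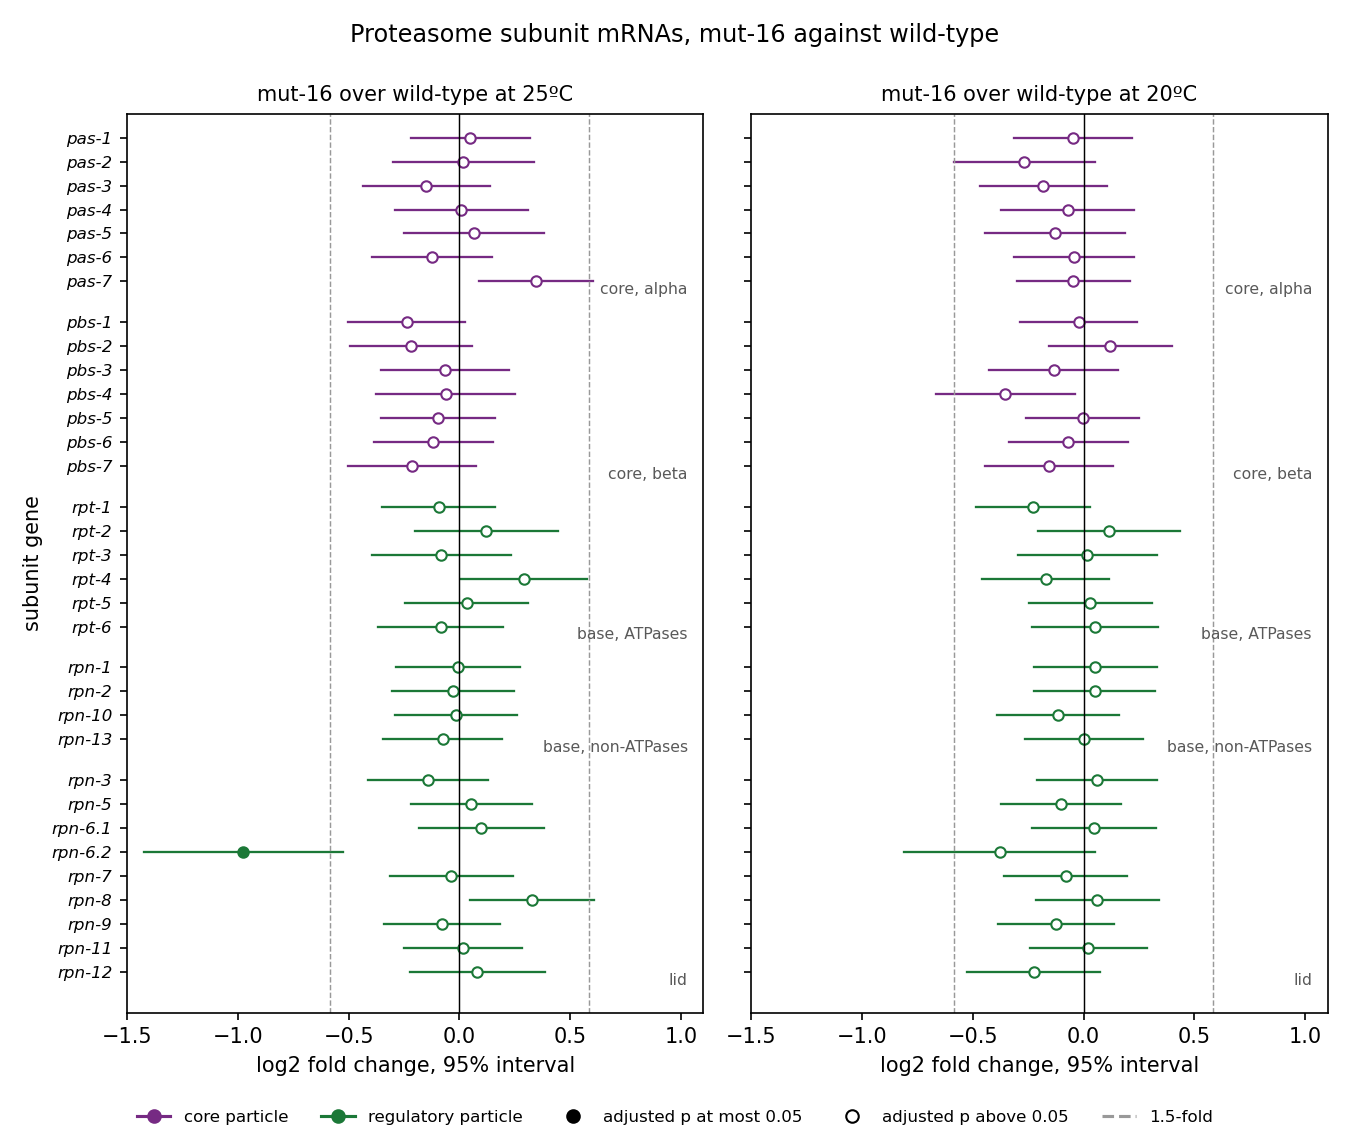
Log2 fold changes of *mut-16* over wild-type of each subunit gene at 25ºC and at 20ºC, with 95% intervals, core genes in purple and regulatory genes in green. The only filled point, an adjusted p of at most 0.05, is *rpn-6.2* at 25ºC with −0.97; dashed lines mark a 1.5-fold change.

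Whether heat stress acted differently in the 2 genotypes was tested with the interaction of genotype and temperature. No subunit gene was called (0 of 33), where 1.59% of all genes tested were called higher and 1.5% lower with edgeR's quasi-likelihood test. DESeq2 called 0 as well, where 2.04% of all genes it tested were higher and 2.6% lower. An unadjusted p below 0.05 was reached by 19.5% of all genes tested and by 2 subunit genes with edgeR, *rpt-4* at 0.46 ± 0.19 (adjusted p = 0.19) and *pas-7* at 0.39 ± 0.17 (adjusted p = 0.22), and by 1 gene with DESeq2. The calls of *pas-7*, *rpn-12* and *rpt-4* in wild-type alone are therefore not shown to be particular to wild-type. For *rpn-6.2* the interaction was −0.60 ± 0.29 (adjusted p = 0.28, edgeR). The precision was lower than for the single comparisons: the 95% interval had a median half-width of 0.39 on the log2 scale, and lay within a 1.5-fold change for 22 of 33 genes. Under the stricter rule with a log2 fold change beyond 1, 0 of 33 subunit genes were called in any comparison. That rule called 6.37% of all genes tested for temperature in *mut-16*, 9.48% for temperature in wild-type, 11.8% for *mut-16* at 25ºC, 4.57% for *mut-16* at 20ºC and 2.61% for the interaction.

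Genes that regulate or assist the proteasome were examined beside the subunits. Of 5 genes for the SKN-1 pathway of subunit transcription (*skn-1*, *ddi-1*, *png-1*, *sel-1* and *sel-11*), only *sel-1*, a component of the ubiquitin ligase of the endoplasmic reticulum, was called, and in *mut-16* with temperature alone. It had 112 and 111 CPM in *mut-16* at 25ºC, against 80.0 and 84.5 CPM in *mut-16* at 20ºC, and rose by 0.44 on the log2 scale (SE 0.12, adjusted p = 0.032, edgeR). The interaction for *sel-1*, 0.53 ± 0.17, did not pass (adjusted p = 0.12, edgeR). *skn-1* itself had 56.4 and 53.8 CPM in *mut-16* at 25ºC, 54.1 and 79.2 CPM in *mut-16* at 20ºC, 60.2 and 53.9 CPM in wild-type at 25ºC and 49.3 and 53.8 CPM in wild-type at 20ºC. It did not pass in any comparison, with adjusted p-values of 0.20 to 0.88 (edgeR).

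*cdc-48.1*, an ATPase that extracts ubiquitylated proteins for the proteasome, fell at 25ºC in both genotypes. It had 266 and 271 CPM in *mut-16* at 25ºC, against 347 and 391 CPM in *mut-16* at 20ºC, and 271 and 284 CPM in wild-type at 25ºC, against 378 and 367 CPM in wild-type at 20ºC. The log2 fold changes were −0.46 ± 0.12 in *mut-16* and −0.42 ± 0.12 in wild-type, both with an adjusted p of 0.025 (edgeR), and the 4 other genes of its list were not called. Of 7 genes for factors that associate with the proteasome, *ubh-4*, a deubiquitinase of the regulatory particle, was the only one called. It had 69.0 and 70.5 CPM in *mut-16* at 25ºC and 87.9 and 72.4 CPM in *mut-16* at 20ºC, against 50.8 and 53.4 CPM in wild-type at 25ºC and 75.4 and 81.6 CPM in wild-type at 20ºC. Like *pas-7* and *rpn-8*, it was lowest in wild-type at 25ºC. It fell by 0.59 at 25ºC in wild-type (SE 0.14, adjusted p = 0.0078) and was higher by 0.42 in *mut-16* than in wild-type at 25ºC (SE 0.14, adjusted p = 0.045, edgeR). Both calls share the wild-type libraries at 25ºC. At 25ºC in *mut-16* the log2 fold change of *ubh-4* was −0.20 ± 0.14 and its interaction was 0.39 ± 0.19. Neither passed (adjusted p = 0.40 and 0.28, edgeR). *ubq-2*, which encodes ubiquitin fused to a ribosomal protein, had 3166 and 2978 CPM in wild-type at 25ºC, against 1907 and 1626 CPM in wild-type at 20ºC. There it rose by 0.80 (SE 0.17, adjusted p = 0.0037, edgeR). In *mut-16* it had 2389 and 2379 CPM at 25ºC, against 2379 and 1634 CPM at 20ºC, and the log2 fold change of 0.25 ± 0.16 did not pass. Its interaction of −0.55 ± 0.23 did not pass either (adjusted p = 0.21, edgeR). The polyubiquitin gene *ubq-1* and *uba-1*, the ubiquitin-activating enzyme, were not called in any comparison.

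Other large complexes were set beside the family. The COP9 signalosome and the translation factor eIF3 share their domain architecture with the lid, and 0 of 6 COP9 genes and 0 of 11 eIF3 genes were called in any comparison. Of 8 genes of the CCT chaperonin, which folds actin and tubulin, 1 was called, *cct-5*, higher in *mut-16* at 20ºC by 0.42 (SE 0.12, adjusted p = 0.041, edgeR). At 25ºC against 20ºC the eIF3 genes had medians of −0.16 in *mut-16* and −0.04 in wild-type, and the CCT genes −0.29 in *mut-16* and −0.13 in wild-type. Of the ribosomal protein genes in wild-type, 49 of 78 rose at 25ºC and 0 fell, with a median of 0.54, while 0 of 78 were called at 25ºC in *mut-16*, with a median of 0.20. For the interaction of genotype and temperature 0 of 78 were called, with a median of −0.34. The rise is therefore not shown to be particular to wild-type. Regulatory particle genes had medians of −0.15 in *mut-16* and −0.17 in wild-type beside them, and the difference between these lists was not tested.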

How the data were processed

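The 8 L4 mRNA-seq libraries were analysed from the values the authors deposited. According to the paper's methods, the authors trimmed reads with Cutadapt and quantified them with Salmon on the transcriptome. The deposited values were taken to be expected counts summed per gene, from the file names and from the values, which are not negative, mostly whole and of different totals per library. Whether the counting used the strand is not given in the sources used here. Of 46453 names, 45714 matched the Ensembl WBcel235 annotation, 735 did not (at most 0.0899% of a library's counts) and 4 were repeated, with 0 counts. All value columns were used (columns not used: 0).

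Counts were rounded, filtered with filterByExpr (minimum count 10, minimum total 15), scaled by TMM and fitted in 1 model of 4 groups with edgeR 4.0.16 in R 4.3.3, with the p-value adjusted by Benjamini-Hochberg over 13972 genes in each comparison. The dispersion common to all genes was estimated at 0.0153 (biological coefficient of variation 0.124). Depth was 9914054 to 13227929 counts per library. CPM values carry no added count. Lengths are the union of annotated exons. Same-numbered replicates deviated from their group means with correlations of −0.16 to 0.07 over genes, so numbers were not taken as pairs. Nothing beyond the term biological replicates says how replicates were separated, so p-values measure the spread between these samples.

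Values in every library are given for each subunit gene called in a comparison, for *rpn-6.1*, *rpn-6.2* and *pbs-5*, and for the highest and lowest per length. *pbs-2*, *rpn-1*, *rpn-8*, *skn-1*, *F44E5.4*, *F44E5.5*, *hsp-70* and *hsp-16.1* were chosen after their values were seen. The gene family, lists and tests were chosen with earlier results of these data known. Alternatives were DESeq2 1.42.0, RLE or total count scaling, other filters, a replicate block, only the 2 groups compared, each library left out, the longest transcript as length, and a length trend offset chosen after seeing the data. Figures were drawn with matplotlib 3.10.9.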

Additional observations from a re-analysis of the deposited data

Results flagged for a closer look

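The change at 25ºC differed between the genotypes for 3 of the 8 heat shock entries, all of the HSP70 family, which are not proteasome subunits. The interaction of genotype and temperature was −2.44 on the log2 scale for *F44E5.4* (SE 0.28, adjusted p = 0.00074) and −1.79 for *F44E5.5* (SE 0.38, adjusted p = 0.022, edgeR's quasi-likelihood test). For *hsp-70* it was −1.43 (SE 0.35, adjusted p = 0.045, edgeR). A negative value means that the change in *mut-16* lay below that in wild-type.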

How the results depend on the processing

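With total count scaling, 15 subunit genes were called lower at 25ºC in wild-type (19.9% of all genes), with medians of −0.27 (core) and −0.41 (regulatory). The regulatory median at 25ºC in *mut-16* was −0.22. For *mut-16* against wild-type at 25ºC, 3 were called higher (13.7% of all genes) and the medians were 0.095 (core) and 0.16 (regulatory). The interaction medians were 0.23 (core) and 0.19 (regulatory). These shifts go with the −0.25, −0.07, 0.17 and 0.18 by which that scaling moved the median of all genes.

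At 25ºC in *mut-16*, DESeq2, no filter beyond 1 count and only the 2 groups compared each called 1 gene lower (4.47%, 5.09% and 7% of all genes tested under them), and the length trend offset called 3 (7.26%). The offset gave medians there of −0.10 (core) and −0.21 (regulatory), a core median of 0.07 for *mut-16* against wild-type at 20ºC, interaction medians of −0.062 (core) and −0.057 (regulatory), and 2 genes called higher in *mut-16* at 25ºC (9.68% of all genes). Only the 2 groups compared gave 3 higher and 2 lower in *mut-16* at 25ºC (13.5% and 18.4% of all genes). Requiring a log2 fold change beyond 1 left 0 calls in every comparison. The replicate block, for numbers that share only a number, moved *rpt-4* in wild-type to an adjusted p of 0.057 and changed no other call among the 4 called genes, and only the 2 groups compared moved *rpt-4* to 0.068 (edgeR). *pas-7*, *rpn-12* and *rpn-6.2* kept their calls in 8 of 8 alternatives that use all libraries compared, *rpt-4* in 6 of 8. The cause of these changes was not tested.

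Leaving out each library in turn changed how many subunit genes were called for temperature in both genotypes and for *mut-16* against wild-type at 25ºC. The share of all genes tested that these fits called is not given. Medians at 25ºC over these fits ran from −0.24 to −0.057 (regulatory) in wild-type, and from −0.10 to 0.11 (core) and −0.16 to −0.060 (regulatory) in *mut-16*. For *mut-16* at 20ºC they ran from −0.22 to 0.060 (core) and −0.046 to 0.14 (regulatory), and for the interaction from −0.11 to 0.18 (core) and −0.11 to 0.074 (regulatory). The other results stayed within the limits set for them.

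With 2 replicates per group, the 95% intervals had a median half-width of about 0.28 on the log2 scale in single comparisons and 0.39 for the interaction. Smaller differences could not be told from 0 for a typical subunit gene, even before adjustment over genes. With the adjustment larger ones were missed too, as *pbs-2* at 0.37 for temperature in wild-type did not pass (adjusted p = 0.060, edgeR).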
